A study of Mus musculus with 32 samples.

Results

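AP-1 is a dimeric transcription factor assembled from FOS, JUN and ATF family proteins, and 8 genes of this family (Fos, Fosb, Fosl1, Fosl2, Jun, Junb, Jund and Atf3) are described here in mouse kidney after cisplatin. They were chosen by name and not by a cut on measured values, but with earlier results of these data known. They are 8 of the 20659 gene symbols that the array's probes could be matched to. All 8 passed the filter on dim probes that left 23746 genes and unnamed transcripts for testing. Each of the 8 was well above background on at least 31 of the 32 arrays, saline arrays included, so none passed only through the cisplatin groups.

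The groups, each with 4 independent male mice aged 12 to 16 weeks, were miR-155-/- and wild type mice given saline, and miR-155-/- and wild type mice killed 24, 48 or 72 h after 1 dose of 20 mg/kg cisplatin, a DNA-crosslinking drug that injures the kidney tubule. The miR-155-/- mice carry the B6.Cg-Mir155tm1.1Rsky/J allele in every cell and trace to The Jackson Laboratory, while the wild type C57BL/6 mice came from Charles River, so the genotype and the source of the mice cannot be told apart. The labels give the saline mice as 0 h, and no saline group was collected later. RNA came from whole homogenised kidney and was labelled with Cy3 for 1-colour Agilent 4x44k v2 arrays, 1 array per mouse. In such bulk samples fewer cells of a type and less RNA per cell cannot be told apart.

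FOS proteins cannot pair with themselves and bind DNA as heterodimers with JUN proteins, whereas JUN proteins can also form homodimers. Fos, Fosb, Jun, Junb and Atf3 are classic immediate early genes, transcribed without new protein synthesis when MAP kinases signal growth factor stimulation, stress or DNA damage. Fosl1 and Fosl2 are commonly induced later, Fosl1 being itself a known AP-1 target, and Jund is expressed in many resting cells. In the kidney these genes are known to be induced by ischaemia and by tubular toxins.

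The study treats Fos as a target of miR-155. The mature miR-155-5p is shown with its seed, bases 2 to 8, in capitals, because base pairing of the seed with a messenger RNA is the usual basis for naming a target. The sequence is from RefSeq and lies at chr16:84714143-84714165 on the plus strand of GRCm38.p6.
mmu-miR-155-5p: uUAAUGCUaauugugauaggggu

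The array has no probe named for Mir155, so the deleted gene could not be checked in these files.

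The promoters of Fos, Jun and Atf3 are shown as the 250 bases before the RefSeq start site, because these genes moved together after cisplatin. The Fos stretch is chr12:85473640-85473889 on the plus strand, the Jun stretch chr4:95052223-95052472 on the minus strand and the Atf3 stretch chr1:191183334-191183583 on the minus strand, all in GRCm38.p6. Capitals mark the cAMP response element (CRE) core TGACG or its complement CGTCA in Fos and Atf3, and TGACATCA in Jun.
Fos: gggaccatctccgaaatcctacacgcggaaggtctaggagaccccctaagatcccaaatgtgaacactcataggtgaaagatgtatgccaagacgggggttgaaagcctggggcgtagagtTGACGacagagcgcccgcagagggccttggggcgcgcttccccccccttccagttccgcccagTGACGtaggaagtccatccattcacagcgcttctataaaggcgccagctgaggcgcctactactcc
Jun: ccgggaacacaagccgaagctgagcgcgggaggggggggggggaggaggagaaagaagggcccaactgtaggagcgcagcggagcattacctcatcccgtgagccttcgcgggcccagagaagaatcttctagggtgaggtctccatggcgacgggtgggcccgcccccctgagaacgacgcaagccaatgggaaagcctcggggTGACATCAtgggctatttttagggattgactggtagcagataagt
Atf3: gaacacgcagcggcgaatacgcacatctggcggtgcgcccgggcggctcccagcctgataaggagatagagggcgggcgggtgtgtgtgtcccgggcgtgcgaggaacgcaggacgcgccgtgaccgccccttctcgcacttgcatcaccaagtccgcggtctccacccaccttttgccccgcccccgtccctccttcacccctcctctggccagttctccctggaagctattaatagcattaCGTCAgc

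Both strands of 32851 promoter windows of this length were searched. TGACNTCA with N other than G, which takes in the Jun site TGACATCA, was present in 6.03% of all windows, and in Jun it lay 45 to 38 bases before the start. The CRE core TGACG was present in 17.77% of windows and in 4 members: in Fos at 129 to 125 and 66 to 62 bases before the start, in Fosb at 60 to 56, in Junb at 106 to 102 and in Atf3 at 7 to 3. The classical AP-1 site TGANTCA (6.75% of windows), the full CRE TGACGTCA (1.55%, and containing the core) and the CArG box bound by serum response factor (1.47%) were not found in the windows of the 7 members that the table holds. No window was given for Fosl1. Motif matches describe letters in these windows and were not tested for binding. Sites farther than 250 bases before the start, or after it, lay outside the search. A motif not found here, the CArG box of Fos included, can therefore lie elsewhere in the promoter.

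Levels are given as log2 of the scanner's processed signal minus the 75th percentile of that array, so 0 is the level of a spot at that percentile and 1 unit is a 2-fold difference. The 75th percentile lay between 1531 and 2647 signal units, and 68.8 to 82.2% of spots on an array were well above background. There were 2 arrays that stood apart from the rest on the first principal component, which held 40.4% of the variance: miR-155-/- 48 h replicate 3, at 121, and miR-155-/- 24 h replicate 3, at 87.8. Each of these arrays was the highest of its group for 7 of the 8 AP-1 genes. The red blood cell marker sum (linear signal over the array's 75th percentile, 5 markers) was 34.5 on the first of them, against a group median of 1.27, and its tubule marker sum of 83.9 was the lowest of the series; the part of these differences in the AP-1 values was not tested, and values that change with either array are given with and without it.

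The AP-1 genes stood higher after cisplatin in both genotypes. In miR-155-/- kidneys 8 of 8 genes were higher than in saline kidneys at 24 h, at 48 h and at 72 h, and in wild type kidneys 8 of 8 were higher at 24 h and at 48 h and 7 of 8 at 72 h (limma, adjusted p under 0.05 by the Benjamini-Hochberg method over 23746 genes and transcripts, n = 4 mice per group). No member was lower. The same call took in 26.6%, 22.7% and 17.7% of all genes tested as higher in miR-155-/- kidneys at 24, 48 and 72 h, and 22.5%, 21.1% and 17.5% as lower. In wild type kidneys it took in 21.0%, 12.2% and 12.5% as higher and 17.6%, 11.6% and 12.8% as lower.

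The median log2 difference of the 8 genes from saline was 2.74, 2.66 and 2.13 at 24, 48 and 72 h in miR-155-/- kidneys and 2.60, 1.91 and 1.74 in wild type kidneys. Over all genes tested, the medians lay between -0.05 and 0.07. All 8 genes had every cisplatin array above every saline array of the same genotype in each of the 6 comparisons. That held for 21.9%, 19.6% and 19.7% of all genes tested in miR-155-/- kidneys at 24, 48 and 72 h, and for 25.4%, 17.3% and 19.3% in wild type kidneys. The 6 comparisons share their saline arrays within a genotype.

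**Figure D1:**
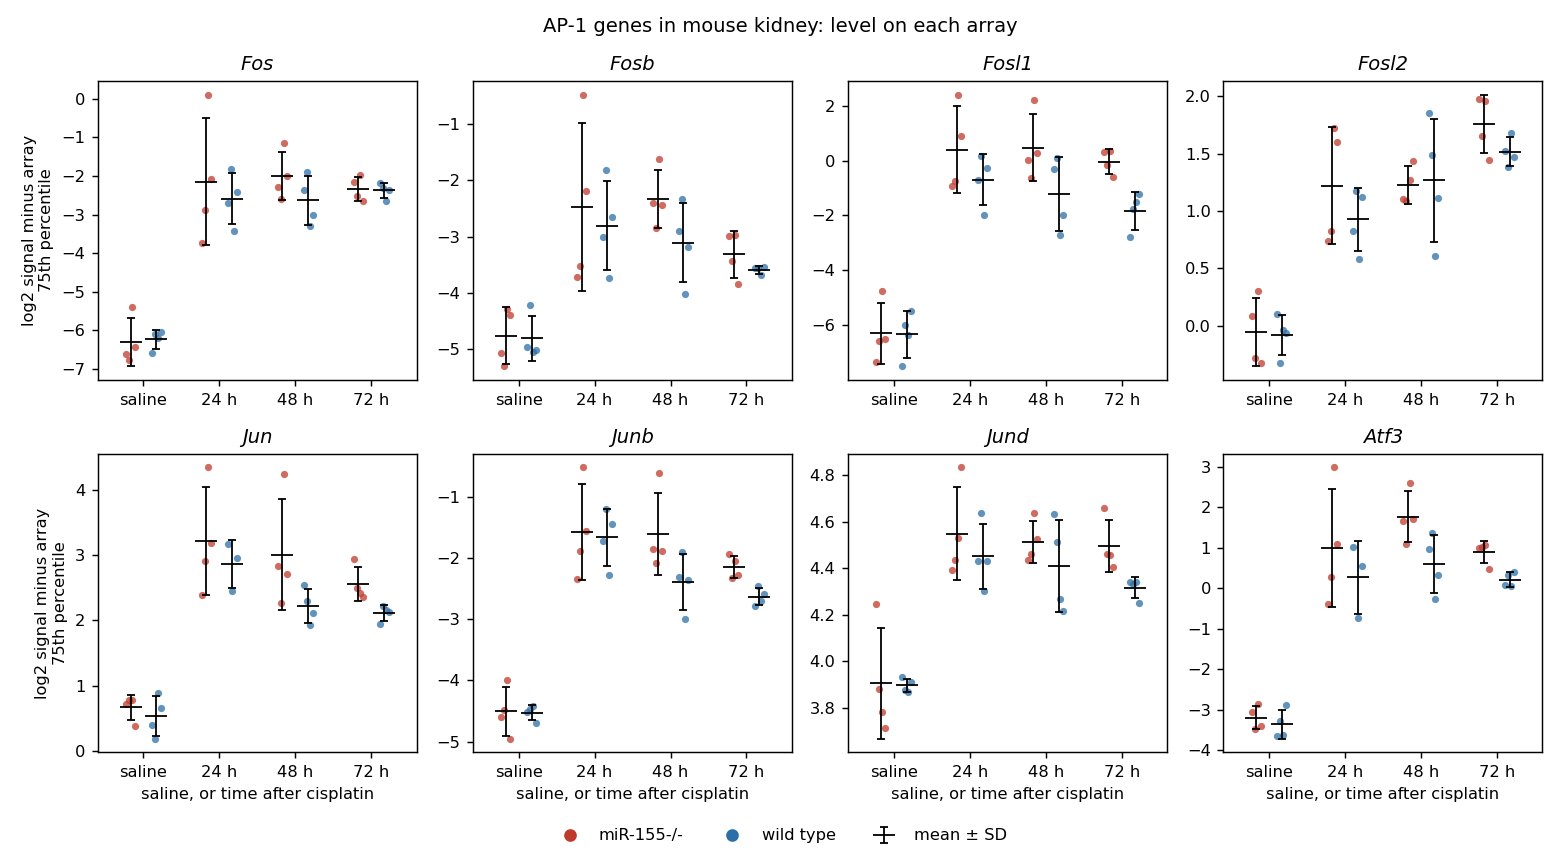
Level of each AP-1 gene on every array (log2 signal minus the array's 75th percentile), with saline and then time after cisplatin on the x axis, miR-155-/- in red and wild type in blue, and bars for the mean ± SD of 4 mice. In every panel the cisplatin arrays lie above the saline arrays of the same genotype, and the miR-155-/- 24 h group has its highest Fos array at 0.11 and its lowest at -3.74.

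Fos, the prototype partner of JUN proteins, stood in saline kidneys at -6.61, -6.78, -5.39 and -6.44 in miR-155-/- mice and -6.58, -6.09, -6.20 and -6.05 in wild type mice. At 24 h it stood at -3.74, -2.88, 0.11 and -2.08 in miR-155-/- mice and -2.69, -1.81, -3.42 and -2.42 in wild type mice. At 48 h the values were -2.27, -2.60, -1.14 and -2.002 in miR-155-/- mice and -2.35, -1.89, -3.29 and -3.005 in wild type mice, and at 72 h -2.16, -2.53, -1.98 and -2.64 in miR-155-/- mice against -2.18, -2.31, -2.64 and -2.37 in wild type mice. Every cisplatin value was above every saline value, the genotypes overlapped at each time, and the spread was widest at 24 h in miR-155-/- mice. The rise over saline was 17.8-fold, 19.7-fold and 15.8-fold at 24, 48 and 72 h in miR-155-/- kidneys, and 12.5-fold, 12.1-fold and 14.5-fold in wild type kidneys (limma, adjusted p 4.27e-07 or smaller in miR-155-/- and 3.95e-06 or smaller in wild type). Without miR-155-/- 24 h replicate 3, the 24 h rise in miR-155-/- kidneys was 10.6-fold. The Fos probe was printed in 10 spots, which were averaged.

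Fosb, a close relative of Fos whose short splice form accumulates on repeated stimulation, started at -4.76 ± 0.50 in miR-155-/- and -4.81 ± 0.39 in wild type saline kidneys (SD, n = 4). It averaged -2.48 ± 1.49, -2.33 ± 0.51 and -3.31 ± 0.42 at 24, 48 and 72 h in miR-155-/- kidneys, and -2.81 ± 0.79, -3.11 ± 0.70 and -3.59 ± 0.07 in wild type kidneys. It was the member with the least secure calls. The differences from saline of 2.28, 2.43 and 1.45 in miR-155-/- kidneys were called at all 3 times, while of those in wild type kidneys, 2.001, 1.70 and 1.22, the last was not (limma adjusted p = 0.0632). The wild type 72 h value was called in 7 other fits: with quantile normalization, with slide as a fixed or random block, with array weights, without both arrays that stand apart, with only the compared groups and without wild type saline replicate 2 (limma adjusted p 0.000109 to 0.0485). In the remaining alternatives it was not called, and with the normexp background correction described below it fell to 0.68. The call in miR-155-/- kidneys at 72 h was lost without miR-155-/- saline replicate 1 or 2 or miR-155-/- 72 h replicate 1 or 3 (limma adjusted p 0.0522 to 0.0661), and the wild type call at 48 h without wild type 48 h replicate 2 (1.44, adjusted p = 0.0519). Without miR-155-/- 24 h replicate 3, the 24 h rise of Fosb in miR-155-/- kidneys was 3.07-fold, against 4.86-fold with it.

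Fosl1 encodes FRA-1, a FOS protein that lacks the C-terminal transactivation domain of FOS, and it had the largest differences of the family. Its saline values were -7.36, -6.59, -4.74 and -6.50 in miR-155-/- mice and -7.50, -5.99, -6.36 and -5.47 in wild type mice, the lowest of these being not well above background. At 24 h they were -0.94, -0.75, 2.41 and 0.90 in miR-155-/- mice and -0.69, 0.17, -1.98 and -0.27 in wild type mice. The saline and cisplatin groups were separated by a wide gap, with the highest saline value at -4.74 and the lowest cisplatin value at -2.80. At 48 h Fosl1 stood at 0.03, -0.62, 2.23 and 0.27 in miR-155-/- mice and -0.31, 0.11, -2.72 and -1.99 in wild type mice. At 72 h the values were 0.30, -0.17, 0.35 and -0.61 in miR-155-/- mice and -2.80, -1.77, -1.51 and -1.21 in wild type mice, and there the genotypes did not overlap.

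The rise of Fosl1 over saline was 103.9-fold, 109.4-fold and 76.8-fold at 24, 48 and 72 h in miR-155-/- kidneys, and 49.8-fold, 34.4-fold and 22.8-fold in wild type kidneys (limma, adjusted p 7.93e-08 or smaller in miR-155-/- and 1.97e-05 or smaller in wild type). Its confidence intervals were wide: at 72 h the log2 difference was 6.26 (95% confidence interval 4.81 to 7.72) in miR-155-/- kidneys and 4.51 (3.05 to 5.96) in wild type kidneys. Without miR-155-/- 24 h replicate 3 the 24 h rise was 65.4-fold.

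The size of the largest folds depended on the background correction. With normexp correction of the median signals in place of the processed signal, Fosl1 rose 25.9-fold, 23.8-fold and 18.7-fold in miR-155-/- kidneys and 13.1-fold, 9.14-fold and 6.16-fold in wild type kidneys. The Fos rise became 4.78-fold, 5.63-fold and 4.79-fold in miR-155-/- kidneys and 4.30-fold, 3.58-fold and 4.11-fold in wild type kidneys. All of these stayed called. With slide as a fixed block the 48 h rise in miR-155-/- kidneys was 206.2-fold for Fosl1, 30.2-fold for Fos and 47.9-fold for Atf3.

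Fosl2 encodes FRA-2, the second FOS protein without that domain. It was at -0.05 ± 0.30 in miR-155-/- and -0.08 ± 0.18 in wild type saline kidneys. After cisplatin it reached 1.22 ± 0.51, 1.23 ± 0.16 and 1.76 ± 0.26 at 24, 48 and 72 h in miR-155-/- kidneys, and 0.93 ± 0.28, 1.27 ± 0.54 and 1.52 ± 0.13 in wild type kidneys (SD, n = 4). These are rises of 2.42-fold, 2.43-fold and 3.51-fold in miR-155-/- kidneys and 2.01-fold, 2.54-fold and 3.02-fold in wild type kidneys. Fosl2, by this brighter of its 2 probes, was the one member whose 72 h mean was its highest in both genotypes. The second, dimmer probe had its highest mean at 24 h in both. It averaged -4.94 at 24 h and -4.97 at 72 h in miR-155-/- kidneys, and -4.89 and -5.34 in wild type kidneys.

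Jun, the JUN protein with the strongest transactivation and the substrate that gave the JNK kinases their name, stood in saline kidneys at 0.72, 0.78, 0.78 and 0.38 in miR-155-/- mice and 0.39, 0.18, 0.89 and 0.66 in wild type mice. At 24 h it stood at 2.40, 2.92, 4.36 and 3.20 in miR-155-/- mice and, with 1 array missing because of a flagged spot, at 3.18, 2.45 and 2.97 in wild type mice. The 48 h values were 2.83, 2.26, 4.24 and 2.71 in miR-155-/- mice against 2.55, 2.30, 1.93 and 2.12 in wild type mice, and the 72 h values 2.94, 2.50, 2.43 and 2.36 in miR-155-/- mice against 1.95, 2.23, 2.16 and 2.12 in wild type mice. The cisplatin arrays with the 2 highest Jun values were the same 2 arrays that stood apart. Jun rose 5.87-fold, 5.09-fold and 3.71-fold at 24, 48 and 72 h in miR-155-/- kidneys and 5.05-fold, 3.24-fold and 3.004-fold in wild type kidneys. Without both arrays that stand apart, the log2 difference of Jun from saline in miR-155-/- kidneys was smaller, at 2.17 at 24 h and 1.94 at 48 h.

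Junb, which often restrains JUN-driven transcription and is itself induced at once by stimuli, averaged -4.50 ± 0.40 in miR-155-/- and -4.52 ± 0.12 in wild type saline kidneys. It averaged -1.57 ± 0.78, -1.61 ± 0.67 and -2.14 ± 0.18 at 24, 48 and 72 h in miR-155-/- kidneys and -1.66 ± 0.46, -2.39 ± 0.46 and -2.63 ± 0.14 in wild type kidneys (SD, n = 4). Its rises were 7.63-fold, 7.46-fold and 5.13-fold in miR-155-/- kidneys and 7.28-fold, 4.39-fold and 3.71-fold in wild type kidneys. With the normexp correction they lay between 2.26-fold and 4.33-fold and stayed called.

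Jund changed least. It averaged 3.91 ± 0.24 in miR-155-/- and 3.897 ± 0.03 in wild type saline kidneys, and its cisplatin means lay between 4.50 and 4.55 in miR-155-/- and between 4.32 and 4.45 in wild type kidneys. The rises of 1.56-fold, 1.52-fold and 1.51-fold in miR-155-/- kidneys and 1.47-fold, 1.43-fold and 1.34-fold in wild type kidneys were nevertheless called at every time (limma, adjusted p between 2.13e-05 and 7.97e-05 in miR-155-/- and between 0.000166 and 0.0042 in wild type).

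Atf3, a stress-induced ATF protein that pairs with JUN proteins and as a homodimer usually represses, was at -3.06, -3.48, -2.86 and -3.40 in miR-155-/- and -3.66, -3.27, -3.63 and -2.90 in wild type saline kidneys. At 24 h it stood at -0.40, 0.29, 2.999 and 1.09 in miR-155-/- mice and, with the same wild type array missing, at 1.01, -0.73 and 0.55 in wild type mice. At 48 h the values were 1.66, 1.09, 2.61 and 1.73 in miR-155-/- mice and 0.98, 1.37, -0.26 and 0.34 in wild type mice. The genotypes overlapped at both times, and the lowest miR-155-/- value at 48 h was above 3 of the 4 wild type values. At 72 h Atf3 stood at 0.998, 1.02, 1.08 and 0.48 in miR-155-/- mice, all above the 0.08, 0.33, 0.05 and 0.41 of wild type mice. Atf3 rose 18.3-fold, 31.4-fold and 17.1-fold at 24, 48 and 72 h in miR-155-/- kidneys and 12.5-fold, 15.7-fold and 12.0-fold in wild type kidneys. Without miR-155-/- 24 h replicate 3 its 24 h rise in miR-155-/- kidneys was 11.53-fold, and with the normexp correction its 48 h rises were 19.0-fold in miR-155-/- and 10.4-fold in wild type kidneys.

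**Figure D2:**
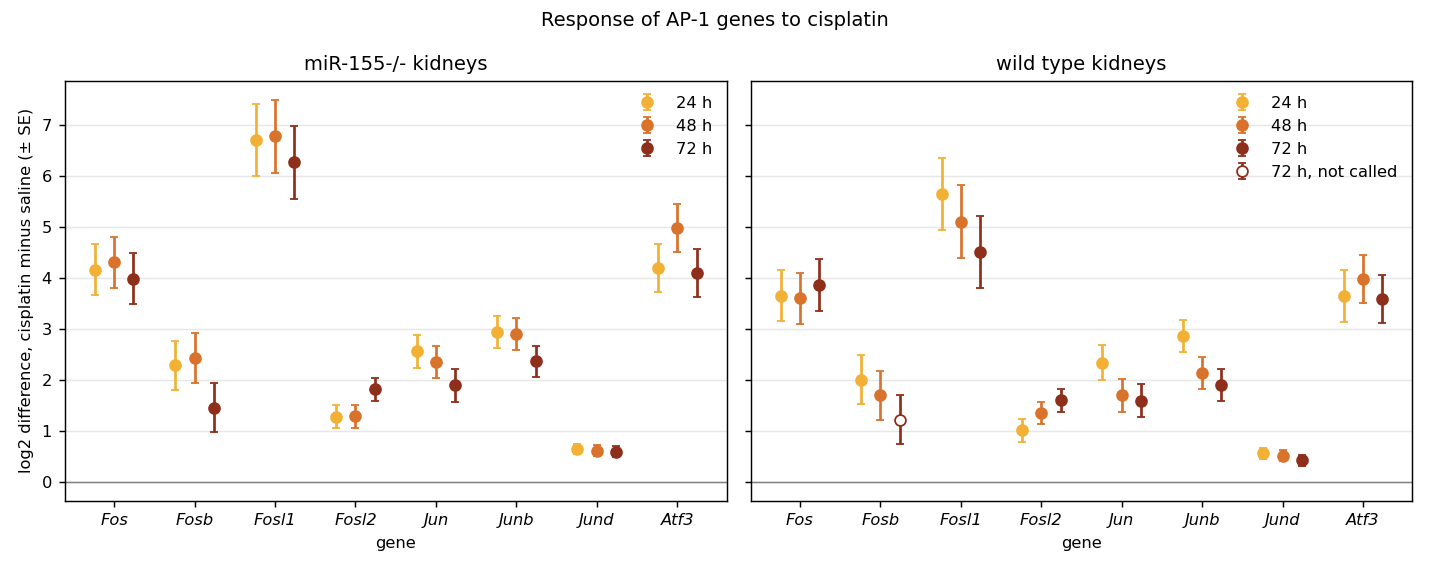
Fitted log2 difference from saline (± SE) for each gene at 24, 48 and 72 h in miR-155-/- kidneys (left) and wild type kidneys (right), with open symbols for a difference that was not called. Fosl1 stands highest, at 6.70, 6.77 and 6.26 in miR-155-/- and 5.64, 5.10 and 4.51 in wild type kidneys, and Jund lowest, at 0.42 to 0.64.

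The 32 arrays lay on 8 slides of 4 arrays. On the slides that held both groups of a comparison, the difference from saline was positive for 8 of 8 genes in wild type kidneys at 24 h (1 slide) and for 16 of 16 values at 48 h (2 slides). In miR-155-/- kidneys it was positive for 16 of 16 values at 24 h (2 slides), 8 of 8 at 48 h (1 slide) and 16 of 16 at 72 h (2 slides). No slide held wild type 72 h and wild type saline arrays together.

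Between the first and the last time after cisplatin, 2 of 8 members were called in wild type kidneys and 0 of 8 in miR-155-/- kidneys. In wild type kidneys Fosl2 was higher at 72 h than at 24 h by 0.59 on the log2 scale (limma adjusted p = 0.0485) and Junb was lower, at -0.97 (adjusted p = 0.0196). Of all genes tested 11.9% were called higher and 14.7% lower, so the share of members called was near that of all genes. Jun had a difference of -0.75 with no overlap between the 72 h and the 3 measured 24 h arrays and was not called (limma adjusted p = 0.116). It was called with array weights, with only the compared groups and without both miR-155-/- arrays that stand apart (limma adjusted p 0.00157 to 0.00458). The arrays of Fosl2 and Junb did not overlap either. Of the 23746 genes and transcripts tested, 3829 had all 72 h arrays above all 24 h arrays and 5078 had them below. In miR-155-/- kidneys 0 of 8 members were called by limma (2 at an unadjusted p under 0.05, Fosl2 at 0.54 and Jun at -0.66, where 40.9% of all genes had one), against 13.6% of all genes called higher and 18.3% lower.

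Both wild type calls depended on single arrays. The Fosl2 call held only without wild type 24 h replicate 2, and was lost in each of the other 7 fits that left out 1 wild type 24 h or 72 h array (adjusted p 0.0533 to 0.149). Junb was no longer called without wild type 24 h replicate 2 or 4 or wild type 72 h replicate 1 (adjusted p 0.0507 to 0.0852). The mean of the dimmer Fosl2 probe was lower at 72 h than at 24 h in wild type kidneys by 0.44 on the log2 scale, opposite in direction to the brighter probe. The mean of both probes gave a difference of 0.07 (limma adjusted p = 0.885). In miR-155-/- kidneys, leaving out 24 h replicate 1 brought 3 genes past the threshold, Fosb (-1.24), Jun (-0.94) and Junb (-0.83). On the 1 slide that held miR-155-/- arrays of both times, 8 of 8 differences were positive, between 0.27 and 1.58, while the fitted difference was positive for Fosl2 alone. The 24 h array on that slide was replicate 1, the lowest of its group for 8 of 8 genes. In wild type kidneys all 6 within-slide values of Fosl2 and Junb, on 3 slides, had the sign of the fit.

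No member was called between the genotypes. With limma, 0 of 8 genes differed between miR-155-/- and wild type kidneys in saline mice, at 24 h, at 48 h or at 72 h, where 0.114%, 0.0800%, 0.101% and 0.720% of all genes tested were called. At an unadjusted p under 0.05 the counts were 0 in saline, 0 at 24 h, 4 at 48 h (Fosl1, Jun, Junb and Atf3) and 1 at 72 h (Fosl1), where 3.33%, 9.3%, 15.1% and 10.9% of all genes had one.

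In saline kidneys the 8 differences lay between -0.07 and 0.16 on the log2 scale. At 48 h they were 1.70 for Fosl1 (95% confidence interval 0.25 to 3.16), 1.17 for Atf3 (0.20 to 2.14), 0.79 for Jun (0.13 to 1.45) and 0.78 for Junb (0.15 to 1.42), with adjusted p between 0.311 and 0.312. The groups overlapped for all 4 of these genes. Without miR-155-/- 48 h replicate 3, 1 of the arrays that stand apart, the differences were 1.12 for Fosl1, 0.89 for Atf3, 0.38 for Jun and 0.45 for Junb.

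For Fos, the named target, miR-155-/- minus wild type was -0.07 in saline kidneys, 0.44 at 24 h, 0.63 at 48 h and 0.05 at 72 h. The 24 h value turned to -0.32 without miR-155-/- 24 h replicate 3, and the 48 h value was 0.34 without miR-155-/- 48 h replicate 3. At 24 h the values of Fosb, Jun and Junb also turned negative without that array, at -0.33, -0.03 and -0.27. The 95% confidence interval for Fos at 72 h, from the spread over all 8 groups, ran from -0.98 to 1.07.

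At 72 h, 5 of the 8 genes had every miR-155-/- array above every wild type array, a separation found in 6.05% of all genes tested. They were Fosl1 (log2 difference 1.79, 95% confidence interval 0.33 to 3.25, limma adjusted p = 0.30), Atf3 (0.68, -0.29 to 1.65), Junb (0.49, -0.15 to 1.13), Jun (0.44, -0.22 to 1.10) and Jund (0.18, -0.04 to 0.40). Fos, Fosb and Fosl2 overlapped. The lowest miR-155-/- value of Fosl1 was -0.61 and the highest wild type value -1.21. These genes vary together over the arrays, so the 5 separations are not 5 independent observations.

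The fit over all 32 arrays takes its spread from all 8 groups, and all 8 members had a smaller SD at 72 h than at 24 h in both genotypes. When only the 2 groups at 72 h were fitted with limma, Fosl1 (adjusted p = 0.0262) and Atf3 (adjusted p = 0.0385) were called higher in miR-155-/- kidneys. With array weights in limma, Fosl1 was called at 72 h (1.78, adjusted p = 0.0124) and Atf3 at 48 h (1.12, adjusted p = 0.0313). Calls also grew over all 23746 genes and transcripts tested at 72 h, from 171 to 854 with only the 2 groups and to 3621 with array weights. The gains were thus not particular to these members. The count over all genes at 48 h with array weights is not given here. On the 3 slides that held both genotypes at 72 h, the Fosl1 difference was 1.81, 2.62 and 1.56, and 23 of the 24 values of the 8 members were positive. The exception was Fos on 1 slide, at -0.35. At 48 h 15 of 16 within-slide values were positive, at 24 h 5 of 8 on the 1 slide available, and in saline mice 7 of 24 on 3 slides.

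**Figure D3:**
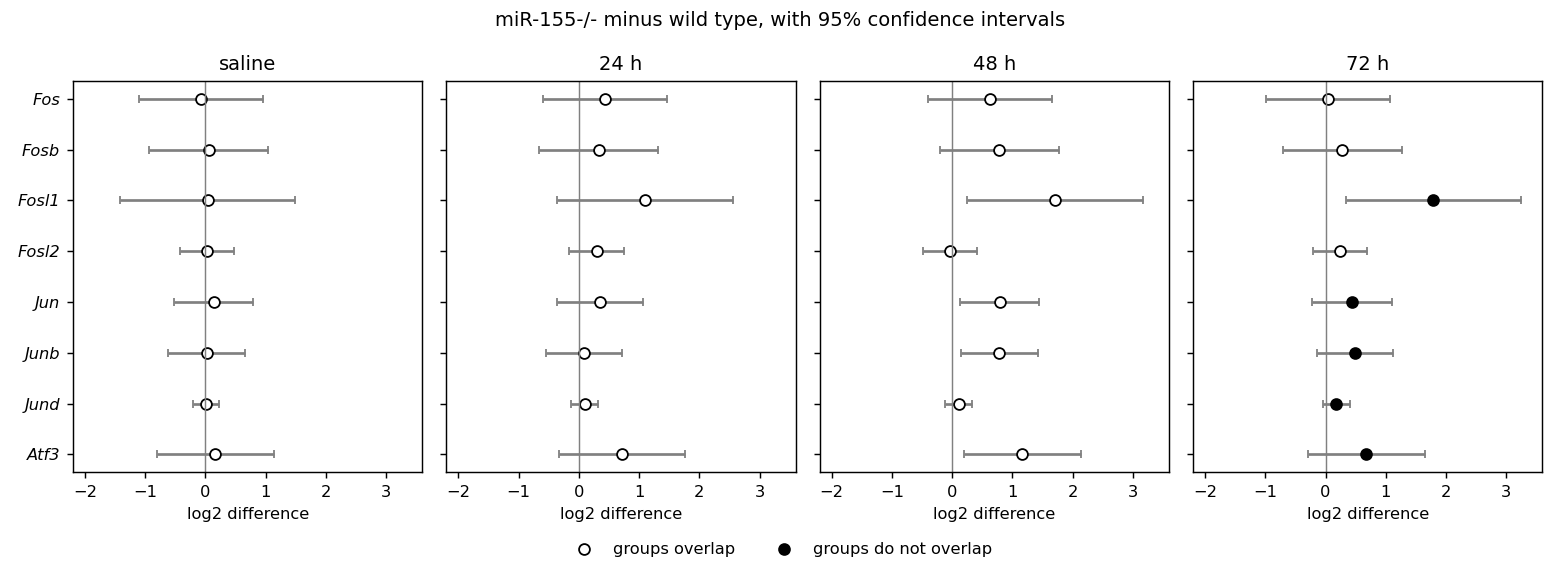
Difference between miR-155-/- and wild type kidneys (log2, miR-155-/- minus wild type, with 95% confidence intervals) for each gene in saline mice and at 24, 48 and 72 h, with filled symbols where all miR-155-/- arrays lay above all wild type arrays. The saline values sit between -0.07 and 0.16, and filled symbols appear only at 72 h, for Fosl1, Jun, Junb, Jund and Atf3.

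Whether cisplatin acted differently in the genotypes was tested as an interaction, the miR-155-/- response minus the wild type response. It was called for 0 of 8 members at 24, 48 and 72 h, with 0%, 0% and 0.215% of all genes called (limma). None of the 8 had an unadjusted p under 0.05, and over all genes 785, 1701 and 1799 had one. The largest estimates were those of Fosl1, 1.06 at 24 h, 1.67 at 48 h and 1.75 at 72 h, the last with a 95% confidence interval of -0.31 to 3.81. For Fos they were 0.51, 0.70 and 0.12. Without both arrays that stand apart, the Fosl1 estimates at 24 and 48 h were 0.39 and 1.09 and those of Fos -0.24 and 0.42, so the direction for Fos at 24 h turned, as it did for Fosb (-0.38), Jun (-0.16), Junb (-0.29) and Atf3 (-0.12).

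In the order of the 8 group means, each gene had its 6 cisplatin groups above both saline groups. Between neighbours in that order, the only pair whose arrays did not overlap was the lowest cisplatin group and the higher saline group, in all 8 genes, so no neighbouring cisplatin groups were separated. Groups farther apart in the order were in some genes, such as the miR-155-/- and wild type 72 h groups of 5 genes. The top mean was that of miR-155-/- kidneys at 48 h for Fos, Fosb, Fosl1 and Atf3, at 24 h for Jun, Junb and Jund and at 72 h for Fosl2. The miR-155-/- means at 24 and 48 h include the 2 arrays that stand apart, and the order depends on them. Without those arrays, the log2 difference of Jun at 24 h, miR-155-/- minus wild type, was -0.03. The 24 h median of Junb was higher in wild type (-1.58) than in miR-155-/- kidneys (-1.72). The lowest cisplatin mean was wild type at 72 h for 6 genes (Fosb, Fosl1, Jun, Junb, Jund and Atf3), at 48 h for Fos and at 24 h for Fosl2.

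The members also varied together among mice of 1 group. Wild type 24 h replicate 2 was the highest of its group for 8 of 8 genes and replicate 3 the lowest for 8 of 8, counting the 3 measured arrays for Jun and Atf3. Likewise miR-155-/- 24 h replicate 1 was the lowest for 8 of 8, miR-155-/- 48 h replicate 2 for 7 and wild type 48 h replicate 3 for 7. At 72 h in wild type mice no array held the highest value for more than 3 genes. Over the 32 arrays, Pearson's r between pairs of members ran from 0.72 (Fosb with Fosl2) to 0.98 (Fos with Atf3) over 28 pairs. The points of these correlations are saline and cisplatin arrays together, and no test is attached.

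**Figure D4:**
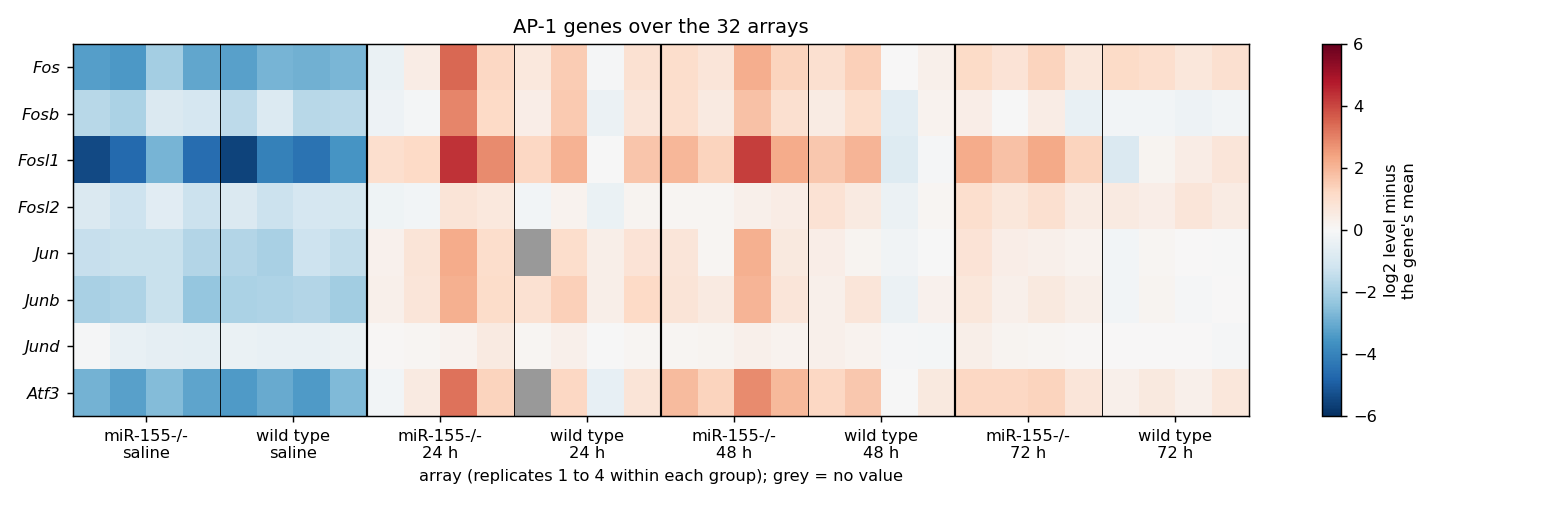
Level of each AP-1 gene (rows) on each of the 32 arrays (columns, grouped by time with miR-155-/- left of wild type), shown as log2 level minus the gene's mean over the arrays, with missing values in grey. Saline arrays are blue throughout, and miR-155-/- 24 h replicate 3 and miR-155-/- 48 h replicate 3, each the third column of its group, are the darkest red for most genes.

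Among the 16452 other named genes tested, those whose values over the arrays were most like Fos were Egr1 (r = 0.98), a zinc finger immediate early gene, Map3k6 (0.97), a stress-activated kinase, and Lif (0.97), a cytokine of the interleukin-6 family. For Fosl1 they were Krt20 (0.98), an epithelial keratin, Maff (0.98), a small MAF protein, and Egr1 (0.98). For Jun they were Ier5 (0.98), Klf6 (0.98) and the MAP kinase phosphatase Dusp8 (0.98) over 31 arrays. For Atf3 they were Ifrd1 (0.98, 30 arrays), Tac1 (0.98, 31 arrays) and Krt20 (0.98, 31 arrays). These correlations span saline and cisplatin arrays, which all these genes separate, and carry no test.

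Other immediate early genes, induced by the same kinases, mostly rose with the AP-1 genes. Of 18 tested, 14, 13 and 13 were higher at 24, 48 and 72 h in miR-155-/- kidneys and 13, 12 and 12 in wild type kidneys, and 0 were lower in either. Their median log2 difference was 1.77, 1.79 and 1.504 in miR-155-/- and 1.54, 1.44 and 1.43 in wild type kidneys. Over all genes tested, 12.2 to 26.6% were called higher and 11.6 to 22.5% lower in these comparisons with saline. Btg2, a growth-arresting p53 target, was higher by 3.62 in miR-155-/- and 3.57 in wild type kidneys at 24 h (limma adjusted p = 2.48e-11 in miR-155-/- and 2.59e-11 in wild type kidneys). Egr1 was higher at 24 h by 4.42 in miR-155-/- (21.4-fold) and 4.05 in wild type kidneys (16.6-fold), and Myc by 2.74 in miR-155-/- and 2.73 in wild type kidneys. Ccn1, a matricellular protein, was higher at 72 h by 2.51 in miR-155-/- and 2.79 in wild type kidneys.

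AP-1 partners and related bZIP genes split. Of 11 tested, 4, 4 and 3 were higher and 5, 4 and 2 lower at 24, 48 and 72 h in miR-155-/- kidneys, and 4, 2 and 3 were higher and 4, 3 and 3 lower in wild type kidneys. Beside these counts, 12.2 to 26.6% of all genes were called higher and 11.6 to 22.5% lower. Maff, which lacks a transactivation domain, was higher by 3.93, 3.71 and 3.41 in miR-155-/- and 3.08, 2.50 and 2.57 in wild type kidneys. Nfe2l2, which encodes the oxidative stress factor NRF2, was higher at 24 h by 1.01 in miR-155-/- and 1.03 in wild type kidneys. Batf3, a JUN partner best known from dendritic cells, was lower at 24 h, at -1.11 in miR-155-/- and -1.18 in wild type kidneys.

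Transcripts of the kinases upstream of AP-1 changed in both directions and mostly by less than the AP-1 genes. Of 22 tested, 8, 10 and 8 were higher and 5, 4 and 3 lower in miR-155-/- kidneys at 24, 48 and 72 h, and 9, 6 and 5 were higher and 3, 1 and 1 lower in wild type kidneys, with medians between 0.09 and 0.20. Over all genes, 26.6%, 22.7% and 17.7% were called higher and 22.5%, 21.1% and 17.5% lower in miR-155-/- kidneys. In wild type kidneys 21.0%, 12.2% and 12.5% were called higher and 17.6%, 11.6% and 12.8% lower. The share of these kinase genes called lower was thus near or below that of all genes. The largest fall was that of Mapk10, the JNK3 gene, at -2.44 in miR-155-/- and -2.62 in wild type kidneys at 24 h. With the normexp correction it was -1.81 in miR-155-/- kidneys and no longer called in wild type kidneys (-1.40, limma adjusted p = 0.0697). Map3k20, the stress-activated kinase ZAK, was higher by 1.59 in miR-155-/- and 1.51 in wild type kidneys at 24 h, and with the normexp correction neither was called (0.44 in miR-155-/-, limma adjusted p = 0.66, and 0.99 in wild type kidneys, adjusted p = 0.161). Mapk13, a p38 gene, was higher at 72 h by 1.63 in miR-155-/- and 1.12 in wild type kidneys.

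The MAP kinase phosphatases, which switch the same kinases off, were more often higher than lower. Of 11 tested, 7, 7 and 6 were higher in miR-155-/- kidneys at 24, 48 and 72 h and 7, 6 and 4 in wild type kidneys, with 1 lower at each time in each genotype. The same calls took in 12.2 to 26.6% of all genes as higher and 11.6 to 22.5% as lower. Dusp4 was higher at 24 h by 2.69 in miR-155-/- and 2.37 in wild type kidneys, and Dusp8 by 2.41 in miR-155-/- and 2.40 in wild type kidneys. The one that was lower was Dusp9, at -2.01 in miR-155-/- and -1.85 in wild type kidneys at 72 h. Between 72 h and 24 h, Dusp4 was lower, at -1.23 in miR-155-/- and -1.43 in wild type kidneys.

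Of 19 textbook AP-1 target genes tested, 10, 12 and 13 were higher and 3, 3 and 2 lower at 24, 48 and 72 h in miR-155-/- kidneys, and 5, 8 and 8 were higher and 2, 2 and 3 lower in wild type kidneys. Their median log2 difference was 1.35, 1.97 and 2.42 in miR-155-/- and 0.18, 1.28 and 1.42 in wild type kidneys. Over all genes, 26.6%, 22.7% and 17.7% were called higher in miR-155-/- and 21.0%, 12.2% and 12.5% in wild type kidneys. In wild type kidneys at 24 h the share of targets called higher was thus near that of all genes, whose median was 0.07. Called lower were 11.6 to 22.5% of all genes. Tnfrsf12a, the TWEAK receptor, was higher by 4.20 in miR-155-/- (18.4-fold) and 3.68 in wild type kidneys (12.8-fold) at 24 h. Spp1, osteopontin, was higher by 2.88 in miR-155-/- and 2.27 in wild type kidneys at 72 h, and Lif by 3.83 in miR-155-/- and 2.61 in wild type kidneys. With the normexp correction Lif was higher by 2.23 in miR-155-/- and 1.31 in wild type kidneys. Vegfa, the vascular growth factor, was lower, at -1.01 in miR-155-/- and -1.14 in wild type kidneys at 24 h.

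**Figure D5:**
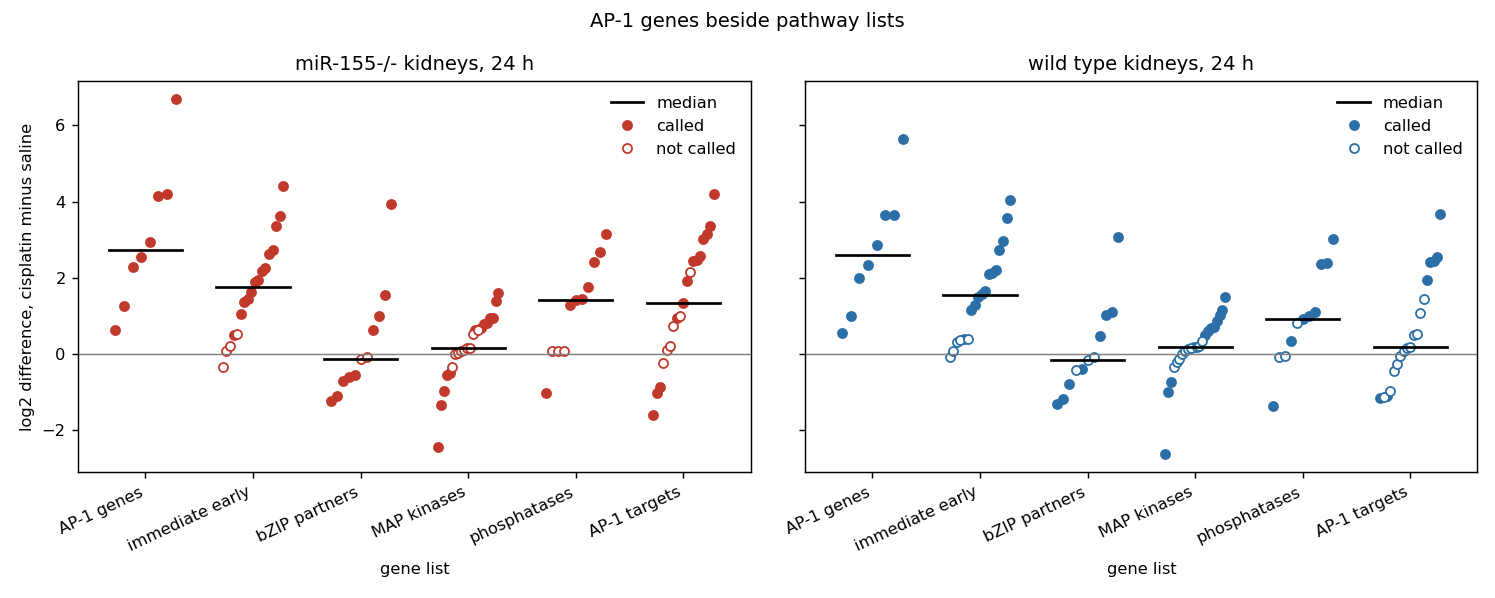
Log2 difference from saline at 24 h in miR-155-/- kidneys (left, red) and wild type kidneys (right, blue) for each tested gene of the AP-1 family and of 5 pathway lists, with filled symbols for called differences and a bar at each list's median. The AP-1 median is 2.74 in miR-155-/- and 2.60 in wild type kidneys, that of other immediate early genes 1.77 in miR-155-/- and 1.54 in wild type kidneys, and that of the MAP kinases 0.16 in miR-155-/- and 0.20 in wild type kidneys.

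Between the genotypes at 72 h, the list genes Ccnd1 (0.84, limma adjusted p = 0.0197), which encodes cyclin D1, Ccn2 (1.55, adjusted p = 0.0119), a matricellular protein, and Mapk11 (1.08, adjusted p = 0.0332), a p38 gene, were called higher in miR-155-/- kidneys. Each of these 3 calls was lost without miR-155-/- 72 h replicate 1, without miR-155-/- 72 h replicate 3 and without wild type 72 h replicate 1 (limma adjusted p 0.0604 to 0.19). Without wild type 72 h replicate 2, the calls of Ccnd1 and Mapk11 were lost (limma adjusted p = 0.0518 for Ccnd1 and 0.0825 for Mapk11). The call of Mapk11 was also lost without wild type 72 h replicate 3 or 4 (limma adjusted p = 0.132 for replicate 3 and 0.0542 for replicate 4). Of 23 other fits, including those that left out 1 array, Mapk11 was called in 13, Ccnd1 in 18 and Ccn2 in 19. Of the 19 AP-1 target genes, 14 had all miR-155-/- arrays above all wild type arrays at 72 h and 0 the reverse, with a median difference of 0.94 beside -0.04 over all genes. For the MAP kinase phosphatases the count was 6 of 11, and for the other immediate early genes 3 of 18. The 5 AP-1 separations stand beside these counts and beside the 6.05% of all genes.

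Markers of cell types moved as well. The summed linear signal of 8 tubule markers was 274.7 to 406.6 in miR-155-/- and 354.1 to 374.2 in wild type saline kidneys, where the tubule markers were thus plainly present. It was 114.3 to 161 in miR-155-/- and 92 to 138.1 in wild type kidneys at 24 h, and 141.3 to 255.3 in miR-155-/- and 201.7 to 243.4 in wild type kidneys at 72 h. At 24 h, 6 of the 8 markers were called lower in miR-155-/- (22.5% of all genes) and 8 of 8 in wild type kidneys (17.6% of all genes). The sum of 10 leukocyte markers was 20.2 to 26.8 in miR-155-/- and 24.6 to 27.4 in wild type saline kidneys, 16.9 to 24.2 in miR-155-/- and 18.8 to 24.9 in wild type kidneys at 24 h, and 11.52 to 17.7 in miR-155-/- and 9.28 to 13.7 in wild type kidneys at 72 h. For the 8 fibroblast and endothelial markers it was 3.905 to 6.79 in miR-155-/- and 4.81 to 7.73 in wild type kidneys at 24 h, against 6.98 to 11.2 in miR-155-/- and 7.50 to 13.3 in wild type saline kidneys. Of the 10 leukocyte markers, 2, 2 and 2 were called higher and 3, 4 and 3 lower at 24, 48 and 72 h in miR-155-/- kidneys, and 0 were higher and 2, 4 and 4 lower in wild type kidneys. Of the 5 red blood cell markers, 1, 1 and 5 were called lower in miR-155-/- and 1, 5 and 5 in wild type kidneys, and 0 higher. Their median log2 difference from saline was -0.66, -1.72 and -4.26 in miR-155-/- and -1.67, -4.22 and -5.62 in wild type kidneys. Beside these counts stand 12.2 to 26.6% of all genes called higher and 11.6 to 22.5% called lower. The leukocyte markers called higher were the neutrophil genes S100a8 and S100a9, by 3.44 and 3.42 at 72 h in miR-155-/- kidneys. In saline kidneys both were lower in every miR-155-/- array than in every wild type array, at -2.89 for S100a8 and -2.95 for S100a9, and not called (limma adjusted p = 0.134 for S100a8 and 0.0753 for S100a9). Their interaction was called at 72 h, at 4.94 for S100a8 and 4.76 for S100a9. The part of these shifts in the AP-1 responses was not tested. Between the genotypes at 72 h, 0 of the 8 tubule, 10 leukocyte, 8 fibroblast and endothelial and 5 red blood cell markers were called by limma.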

How the data were processed

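Each of 32 Agilent arrays was scanned in 1 colour, and the deposited scanner files hold intensity values made with Feature Extraction 10.7.3.1 (protocol GE1_107_Sep09), per the file headers. Their processed signal is background-subtracted by that software. The authors' deposited value table holds the same intensities multiplied by 1 factor per array and served as an alternative.

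Control spots and flagged spots (59 to 976 per array) were left out, spots of a probe were averaged, and values were expressed as log2 of the deposited processed signal minus the array's 75th percentile. Of 39429 probes, 27234 were named through RefSeq (GRCm38.p6) by accession, and the brightest probe stood for a gene. limma 3.58.1 (R 4.3.3) fitted all 8 groups together, with a mean-variance trend and Benjamini-Hochberg adjustment over 23746 genes and transcripts in each of 15 comparisons, at a threshold of 0.05. The code was tested on simulated data. The number of arrays limits the precision.

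The members and gene lists were chosen with earlier results of these data known. From each list, text examples come from the top 4 calls of a comparison ranked by adjusted p. Genes most like a member are the 3 with the highest Pearson's r. Replicate numbers did not pair the mice: same-numbered arrays' deviations correlated at -0.55 to 0.52. Alternatives covered background correction, normalization, dim probes, flags, probe choice, slide, scan day, replicate number, array weights, trend, the arrays fitted and each array left out. Normexp on median signals and the scan day block were chosen after seeing the data. The result of 1 list gene is not reported here.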

Additional observations from a re-analysis of the deposited data

Results flagged for a closer look

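In 6 of 62 combinations of gene and group with 4 arrays, 1 array lay far from the other 3 relative to the group's range (Dixon's criterion, which chance alone meets in about 1 of 20 groups). Fosb had its highest wild type saline value at -4.22 (replicate 2) and its lowest wild type 72 h value at -3.69 (replicate 3), the last in a group that spans little. Jun had its lowest miR-155-/- saline value at 0.38 (replicate 4). Junb had its highest miR-155-/- 48 h value at -0.61 (replicate 3), on 1 of the 2 arrays that stand apart over all genes. Jund had its lowest wild type 72 h value at 4.25 (replicate 4), and Atf3 its lowest miR-155-/- 72 h value at 0.48 (replicate 4), which was still above all wild type 72 h values.

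A second, dimmer Fosl2 probe, which the comparisons above do not use, also stood above its saline level after cisplatin. Its log2 difference from saline was 1.44, 1.30 and 1.40 at 24, 48 and 72 h in miR-155-/- kidneys and 1.66, 1.32 and 1.22 in wild type kidneys, with no test attached.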

How the results depend on the processing

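Planned and added alternatives other than leaving out 1 array gave 1785 member values. Of these, 1760 kept their side of the threshold, 7 lost their call and 18 gained one. Among the 1760, 62 values that were not called changed sign, and 0 called values did. On leaving out 1 array, 1130 of 1152 values kept their side of the threshold, 15 lost and 7 gained a call. Among the 1130, 50 values that were not called changed sign. The number of members called differed from the fit reported above by 1.5 times or more in the following cases. For wild type 72 h against 24 h, where 2 were called, 1 was called with normexp, without a filter on dim probes, with the mean of all probes and without the variance trend, 4 with array weights, and 3 both with only the compared groups and without both arrays that stand apart; leaving out 1 array gave 0 to 1. With the replicate block it was also 1, Fosl2 having an adjusted p of 0.0597 in limma, and replicate numbers do not pair the mice. For miR-155-/- 72 h against 24 h, where 0 were called, 1 was called with quantile normalization, with slide as a random block, with array weights and without both arrays that stand apart, and leaving out 1 array gave 0 to 3. Between the genotypes, array weights gave 1 at 48 h and 1 at 72 h, and fitting only the compared groups gave 2 at 72 h. With normexp the Fosb calls in wild type at 48 h (1.06) and in miR-155-/- at 72 h (1.18) were lost, and wild type 72 h against saline had 8 members called in place of 7 in the 6 alternatives, and without 1 saline array, named with Fosb. Limiting the test to probes well above background on all arrays left out Fosl1. Over all genes, the count between genotypes at 72 h was 171, and was 63 with normexp, 3621 with array weights, 412 with slide as a random block, 268 with slide as a fixed block, 1078 without both arrays that stand apart and 854 with only the compared groups; leaving out 1 array gave 42 (without miR-155-/- replicate 3) to 360 (without miR-155-/- replicate 4). The interaction at 72 h was called for 51 genes, and for 5 with normexp, 110 with quantile normalization, 30 with the replicate block and 1219 with array weights, and 12 (without wild type 72 h replicate 1) to 161 (without miR-155-/- 72 h replicate 4) on leaving out 1 array. With normexp the calls against saline numbered 7142, 5183 and 4776 at 24, 48 and 72 h in miR-155-/- kidneys, where the fit reported above gave 11661, 10391 and 8360, and 5239, 2972 and 3042 in wild type kidneys, where it gave 9179, 5652 and 6019; the median over all genes lay between -0.28 and 0.31 over the 15 comparisons. Array weights gave 11777 and 12531 wild type calls at 48 and 72 h. The cause of these shifts was not tested.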
